A study of Mus musculus with 6 samples.

Results

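The genes described here are the ADAM and ADAMTS metalloproteases, the matrix metalloproteinases (MMPs) and their tissue inhibitors (TIMPs) in the mouse epididymis. Rows were matched by gene symbol, but the family was chosen with earlier results of these data known. The symbols matched 80 of the 24346 gene rows measured. These were 34 ADAM genes with Adamdec1 among them, 19 ADAMTS genes, 23 MMP genes and 4 Timp genes. RNA came from the initial segment and caput, the part of the epididymis nearest the testis, of wild-type mice aged 12 weeks. One group of 3 libraries followed an intraperitoneal injection of the solvent dimethyl sulfoxide (DMSO), and the other group of 3 followed an injection of busulfan, an alkylating drug that depletes germ cells of the testis. No label gives the dose or the time from injection to collection, and an action of busulfan on the epididymis itself cannot be told apart from the loss of germ cells. The labels do not say that each replicate is a separate mouse, so p-values measure the spread between these libraries, which may be partly technical.

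These enzymes share a zinc-binding metalloprotease fold. ADAMs are mostly anchored in the membrane, where the active ones release the outer parts of other membrane proteins, and several ADAMs of testis and sperm have lost protease activity and act in sperm migration and binding. ADAMTS enzymes are secreted and cut proteoglycans, procollagens and von Willebrand factor, MMPs cut matrix and cell-surface proteins, and TIMPs block MMPs and some ADAMs. In the epididymis, Adam7 is made by the epithelium, and its product is handed to maturing sperm.

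Levels are FPKM, which relate fragments to the length of the transcript and the size of the library, as normalized by the authors. Genes averaging 1 FPKM or more, 12848 in all, were compared with limma on log2(FPKM + 1), and an adjusted p under 0.05 counted as past the threshold. Log2 changes below are on that scale, where the added 1 shrinks the changes of genes of low level. Steps in the low values put the libraries at about 11300000 to 13300000 fragments. For 39 of the 80 genes the values were whole multiples of a step, within 0.01, and these multiples are given below as inferred fragments per library. The largest step that fits was taken, so a gene's inferred fragments may all be short by a common factor. Of the 80 genes, 28 reached that mean, 52 did not, and 9 of these 52 were at 0 in every library. With busulfan 9 of the 28 were lower, 4 were higher and 15 did not pass. The 13 past the threshold are 46.4% of the 28, against 42.8% of all genes tested, where 22.1% were lower and 20.8% higher, so these genes were called about as often as genes at large. Busulfan libraries all lay under the DMSO libraries for 11 of the 28 and all above for 4, against 27.7% and 26.9% of all genes tested. Their median log2 change was -0.15, against -0.003 for all genes tested.

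Sequences upstream of MMP genes are shown first, because Mmp7, the tested MMP gene with the largest fall, lies in a run of MMP genes on chromosome 9 that share a letter pattern near their starts. Windows of 300 bases (250 before and 50 after an annotated start) were available from RefSeq for 49 of the 80 genes, on GRCm38.p6. No window was available for Adam7, Adam28, Adamdec1, Adam9 or Adam33, so these genes were not searched. The letters TGANTCA (N for any base), the pattern taken here for AP-1 factors, and AGGAAG, bound by ETS factors of the PEA3 kind, were searched on both strands. Both patterns are in capitals in the windows below, all on the plus strand, for Mmp7, Mmp13 and Mmp12 of the chromosome 9 run and for Mmp15, which lies on chromosome 8 and holds neither.
Mmp7, chr9:7691840-7692139: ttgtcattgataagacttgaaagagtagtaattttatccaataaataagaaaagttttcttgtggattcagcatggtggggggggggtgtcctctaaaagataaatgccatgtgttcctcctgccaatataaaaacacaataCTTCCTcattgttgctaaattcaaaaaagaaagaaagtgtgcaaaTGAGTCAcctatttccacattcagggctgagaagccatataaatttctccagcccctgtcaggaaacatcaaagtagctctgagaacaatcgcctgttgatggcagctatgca
Mmp13, chr9:7272264-7272563: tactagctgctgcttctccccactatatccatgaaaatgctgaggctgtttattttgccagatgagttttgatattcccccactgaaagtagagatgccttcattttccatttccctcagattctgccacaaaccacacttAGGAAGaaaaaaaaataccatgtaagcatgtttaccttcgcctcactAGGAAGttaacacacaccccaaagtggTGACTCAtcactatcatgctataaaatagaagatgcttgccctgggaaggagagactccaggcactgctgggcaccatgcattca
Mmp12, second start, chr9:7347124-7347423: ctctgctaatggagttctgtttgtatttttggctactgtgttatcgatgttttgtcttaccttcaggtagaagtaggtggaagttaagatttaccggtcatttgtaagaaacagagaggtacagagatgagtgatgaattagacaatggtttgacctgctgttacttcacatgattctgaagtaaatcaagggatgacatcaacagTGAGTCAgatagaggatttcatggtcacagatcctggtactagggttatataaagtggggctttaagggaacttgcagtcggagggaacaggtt
Mmp15, chr8:95352046-95352345: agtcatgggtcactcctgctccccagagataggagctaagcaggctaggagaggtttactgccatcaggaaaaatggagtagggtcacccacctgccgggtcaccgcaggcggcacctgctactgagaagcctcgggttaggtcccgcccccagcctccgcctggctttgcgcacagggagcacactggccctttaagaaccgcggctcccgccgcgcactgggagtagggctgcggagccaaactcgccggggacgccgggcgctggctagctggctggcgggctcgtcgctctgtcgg

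In the Mmp7 window the AP-1 letters stood at -63 to -57 from the start and the ETS letters at -108 to -103. In the Mmp13 window the AP-1 letters stood at -35 to -29, with ETS letters at -109 to -104 and at -62 to -57. Across the 10 MMP genes of the chromosome 9 run, 8 of 12 windows held the AP-1 letters, 1 in each of 8 genes, with the first base of each match between -95 and -35. Among the other members 5 of 42 windows held them, as did 7.8% of the 32851 windows of all genes. In Mmp20 of the run, and in Adam20 and Adam25 of the other members, the match read TGAATCA. ETS letters were in 8 of the 12 windows, against 35.4% of all windows. Both patterns stood together in 5 of the 12 windows, each of another gene, against 2.8% of all windows. These are matches of letters, with no measurement of binding here.

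**Figure D1:**
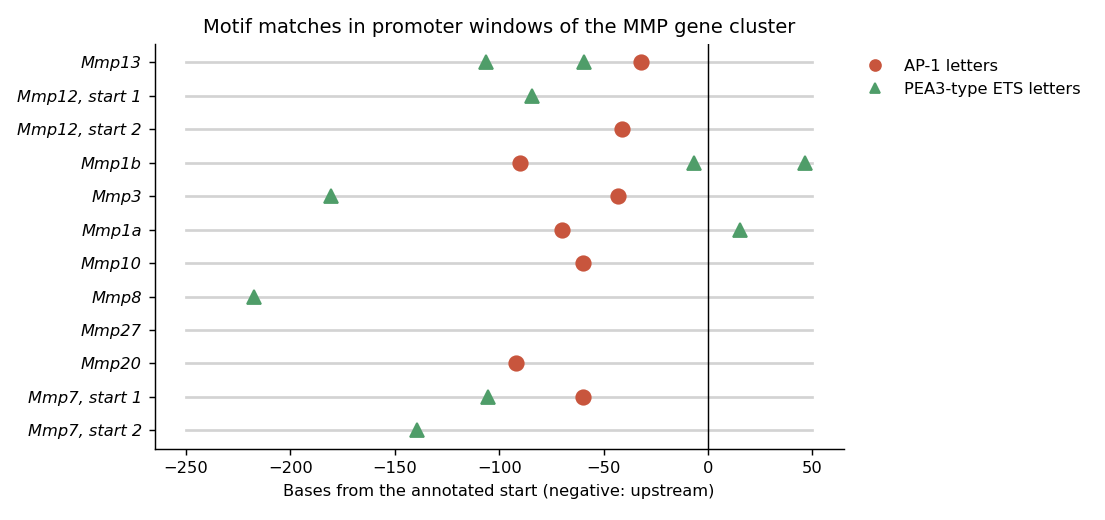
Matches of the AP-1 letters (circles) and the PEA3-type ETS letters (triangles) in the 12 promoter windows of the chromosome 9 MMP genes, by distance in bases from the annotated start. The AP-1 matches of 8 genes all begin between -95 and -35, while the ETS matches are spread over the windows.

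The highest levels of the family belonged to neighbouring ADAM genes on the minus strand of chromosome 14, and these fell by very different amounts. Adam7 (NCBI gene 11500; chromosome 14, 68497336 to 68533741), whose product lacks the residues needed for protease activity, measured 4315.2, 4310.3 and 4437.2 FPKM in the DMSO libraries. With busulfan it measured 3269.8, 3345.1 and 3484.1 FPKM. The groups did not overlap, and 77.3% of the DMSO mean remained (log2 change -0.37, adjusted p = 0.002159). Adam7 ranked 18 by level among all gene rows in both groups. Centring each library on its median kept the call (log2 change -0.34, adjusted p = 0.00338). Quantile normalization gave -0.01 (adjusted p = 0.776), so the call was lost. That scaling gives equal ranks nearly equal values, so it cannot show a change in a gene of unmoved rank. The FPKM of all genes summed to 707219 to 732495 with DMSO and 625087 to 666662 with busulfan. The part of scaling in the fall of Adam7 was not tested.

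Adam28 (NCBI gene 13522; chromosome 14, 68606027 to 68655842), a membrane protease also made by lymphocytes, measured 1129.6, 1319.7 and 1308.7 FPKM in the DMSO libraries. With busulfan it measured 12.4, 10.2 and 9.28 FPKM, so every busulfan library lay far under every DMSO library. The mean was 118-fold lower (log2 change -6.76, SE 0.10, adjusted p = 3.828e-09), the 9th largest fall of all genes tested, and Adam28 went from rank 78 by level to rank 6309. Between these genes lies Adamdec1 (NCBI gene 58860; chromosome 14, 68563380 to 68582095), a relative without membrane anchor best known from macrophages and gut stroma. It measured 4.47, 5.33 and 4.20 FPKM with DMSO and 1.11, 0.657 and 0.827 FPKM with busulfan, a 5.39-fold lower mean (log2 change -1.60, adjusted p = 3.152e-05). Its inferred fragments were 129, 166 and 131 with DMSO and 31, 20 and 22 with busulfan, and the groups did not overlap.

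The ratio of Adam7 to Adam28 was 3.82, 3.27 and 3.39 with DMSO and 263.5, 329.5 and 375.2 with busulfan. An exact 2-sided permutation test of the log ratio gave p = 0.1, the smallest p that 3 against 3 libraries allow. The levels given above already separate the groups, so this p adds no support. Adam28 also fell more than Adamdec1, with 247.6 to 311.6 times its level in the DMSO libraries and 11.1 to 15.4 times with busulfan. The next annotated protein-coding gene beyond Adam28, Stc1, starts only at 69029238. Stc1 was 2.45 ± 0.33 FPKM with DMSO and 6.34 ± 1.71 with busulfan (SD, n = 3) and rose (log2 change 1.07, adjusted p = 0.00146). The protein-coding gene on the other side, Nefl, ends at 68089095 and was near 0 in both groups.

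**Figure D2:**
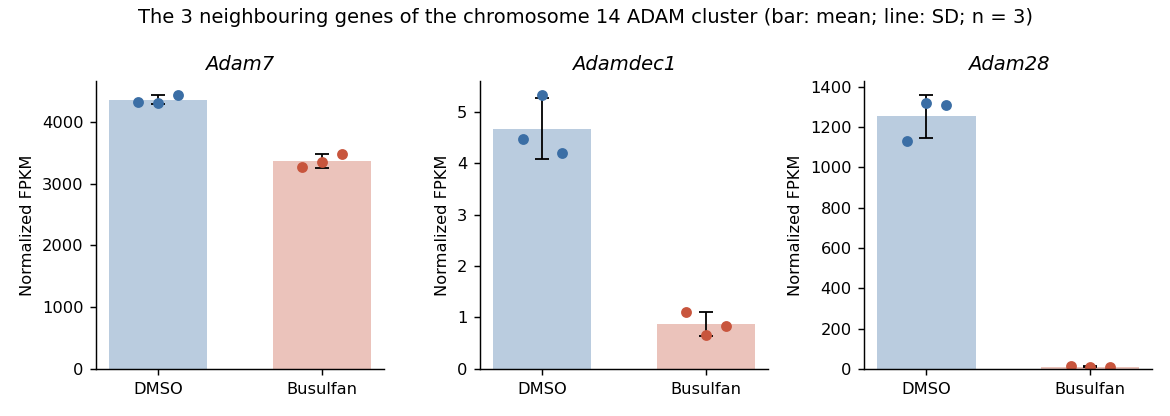
Normalized FPKM of Adam7, Adamdec1 and Adam28, in their order along chromosome 14, with 1 point per library, bars for the mean and lines for the SD (n = 3). Every busulfan point lies under every DMSO point in each panel, but Adam7 kept 77.3% of its mean, Adamdec1 18.6% and Adam28 0.847%.

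Because Adam7 and Adam28 were so abundant, they set the sum over the family. All 80 genes together held 5917, 6097 and 6218 FPKM with DMSO and 3680, 3756 and 3857 FPKM with busulfan. Without these 2 genes the sums were 471.9, 467.5 and 472 FPKM against 397.6, 400.5 and 364 FPKM. Adam7 made up 70.7 to 72.9% of the family's FPKM with DMSO and 88.9 to 90.3% with busulfan, while Adam28 made up 19.1 to 21.6% with DMSO and 0.241 to 0.337% with busulfan.

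Markers of other cells moved in the same libraries. Of 10 markers of proximal principal cells, the secretory epithelium that is also the main source of Adam7, 9 were lower and 1 higher (none without DMSO replicate 2 or without DMSO replicate 3), and Adam7 itself is one of the 10. The sum of the 10 markers was 81180 to 84690 FPKM with DMSO and 47290 to 48790 with busulfan. All 13 endothelial markers were tested and 10 were lower (sum 169.7 to 182.9 against 92.3 to 106.7 FPKM), as were 8 of 12 fibroblast markers (425.5 to 532.1 against 257.5 to 365.6 FPKM; 5 of 12 without DMSO replicate 1). Of 10 tested leukocyte markers 2 were lower and 1 higher (188.1 to 202.5 against 168.4 to 227.1 FPKM), but none was lower without DMSO replicate 2 or without busulfan replicate 3. Of 8 smooth muscle markers only Actg2 was past the threshold, although 3 were higher without busulfan replicate 3. Basal cells had 2 of 5 markers lower and 2 higher. Clear or narrow cells had 2 of 4 tested markers lower and 1 higher, or 2 higher without busulfan replicate 2. Among all genes tested 22.1% were lower and 20.8% higher. Fewer cells of a type and less RNA per cell cannot be told apart in such bulk tissue, and the part of these markers in the changes described here was not tested.

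The widely expressed sheddases, which cut growth factor precursors, receptors and adhesion proteins, changed by less than 0.5 on the log2 scale. Lower were 2 of 4, against 22.1% of all genes tested. Adam10, the protease of Notch receptors and cadherins, measured 68.6, 69.9 and 70.3 FPKM with DMSO and 58.1, 64.8 and 66.4 with busulfan. The groups did not overlap, but the change of -0.14 did not pass (95% interval -0.28 to -0.01, adjusted p = 0.08434). Adam17, which releases TNF and ligands of the EGF receptor, was 12.1 ± 0.82 and 11.2 ± 0.36 FPKM (SD, n = 3; adjusted p = 0.2283), and its exons overlap those of Iah1 on the other strand. Adam15, found at cell junctions, was lower, with 37.5 ± 0.48 FPKM against 28.8 ± 1.11 (log2 change -0.37, adjusted p = 0.0006033). Adam9, another membrane sheddase, was 31.1 ± 1.84 against 25.4 ± 0.84 FPKM and also lower (log2 change -0.28, adjusted p = 0.00562). Exons of Adam15 overlap an antisense transcript, 4731419I09Rik.

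Adam33, a protease of mesenchymal and smooth muscle cells, was the only ADAM past the threshold that was higher with busulfan. It measured 1.35, 0.961 and 0.737 FPKM with DMSO and 3.66, 3.15 and 2.44 FPKM with busulfan, with no overlap and a 3.04-fold higher mean (log2 change 1.02, 95% interval 0.66 to 1.38, adjusted p = 0.001157). Of all genes tested, 1.09% were past the threshold and rose by 1 or more on the log2 scale. Another 3.39% were past it and fell by as much, as did Adam28, Adamdec1 and Mmp7. Adam23, a non-catalytic ADAM of neurons, was 1.70 ± 0.49 and 1.37 ± 0.52 FPKM and its groups overlapped (adjusted p = 0.4717). Of the remaining ADAMs outside the testis group, 5 stayed under the level tested, with Adam19 the highest at 0.992 FPKM in a library.

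**Figure D3:**
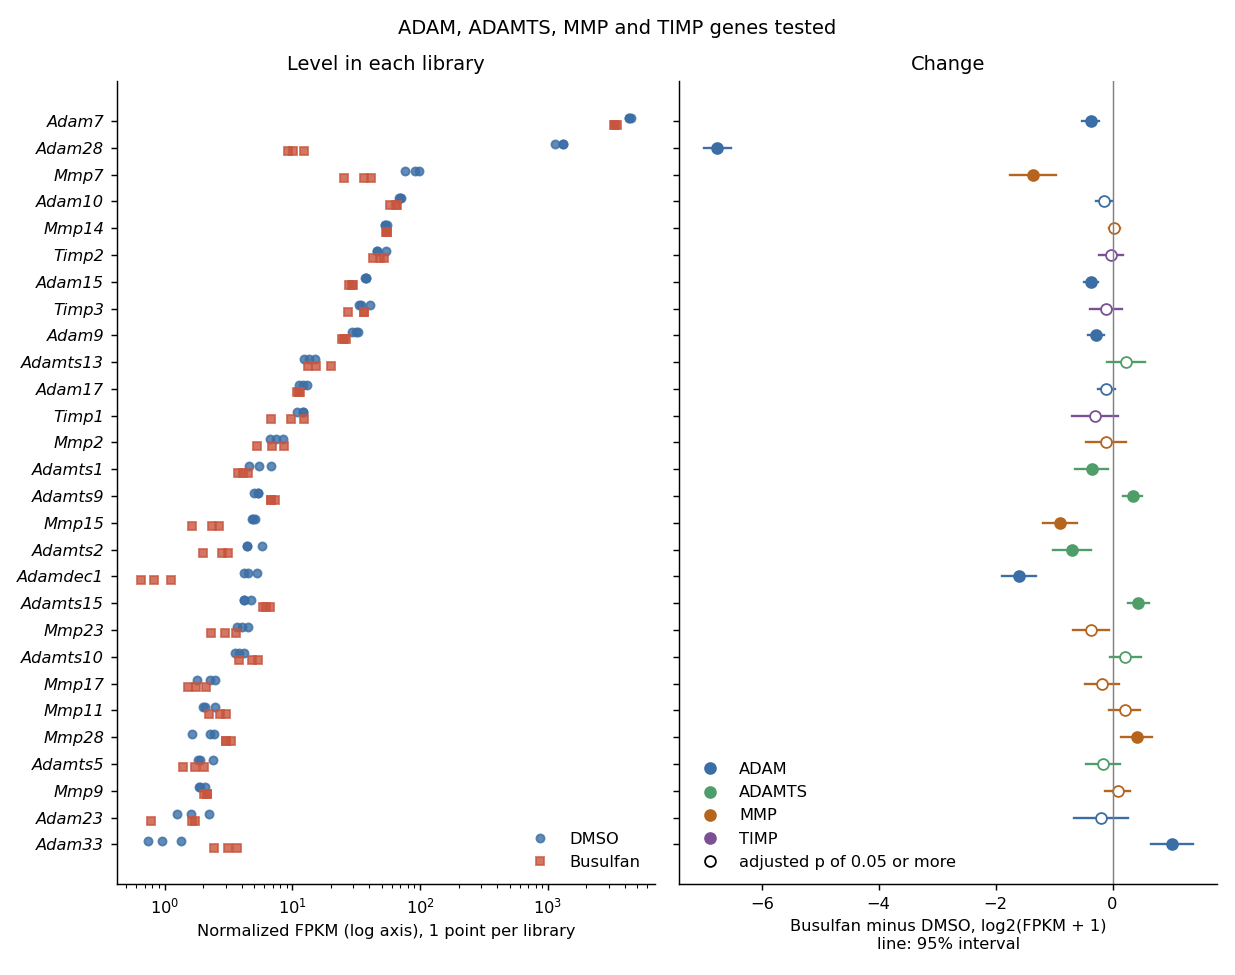
Left, normalized FPKM of the 28 tested genes in each library on a log axis. Right, the log2 change with its 95% interval, with filled points past the threshold. Adam7 and Adam28 exceed all others with DMSO, and with busulfan Adam28 falls to the level of Adam17 and Timp1.

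The 20 ADAMs known from testis and sperm were all under the level tested, and 6 of them, Adam20, Adam24, Adam25, Adam26b, Adam34 and Adam39, were at 0 in every library. Adam2, a subunit of the sperm protein fertilin, gave 8, 2 and 3 inferred fragments with DMSO and 0, 0 and 1 with busulfan. Adam3, required in mouse sperm for passage into the oviduct, gave 11, 11 and 10 against 2, 6 and 4 fragments. With every gene of any signal tested, Adam3 was lower (adjusted p = 0.018) and Adam2 did not pass (adjusted p = 0.125). Of the members under the level tested, only Adam3, Adam1a, Mmp13 and Mmp12 passed in that setting. There 11 of 71 members were lower and 5 higher, with 2899 lower and 2622 higher among all genes. Groups overlapped for Adam4, Adam5 and Adam18. The 20 testis ADAMs together held 2.59, 1.873 and 1.504 FPKM with DMSO and 1.869, 1.732 and 2.153 with busulfan, so their sums overlapped. Of 7 tested markers of haploid germ cells 4 were lower and 1 higher, against 22.1% and 20.8% of all genes tested. The sums of the germ cell markers were 49.7 to 68.1 FPKM with DMSO and 23.3 to 51.6 FPKM with busulfan. The part of germ cell RNA in these values was not tested.

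Adam1a, another ADAM of this testis group, went the other way, with 13, 20 and 19 fragments against 35, 29 and 34. With every gene of any signal tested, Adam1a passed (adjusted p = 0.0105). Its exons overlap those of Mapkapk5 on the same strand and Tmem116 on the other, and both of these genes were higher with busulfan, so the source of these fragments is uncertain.

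**Figure D4:**
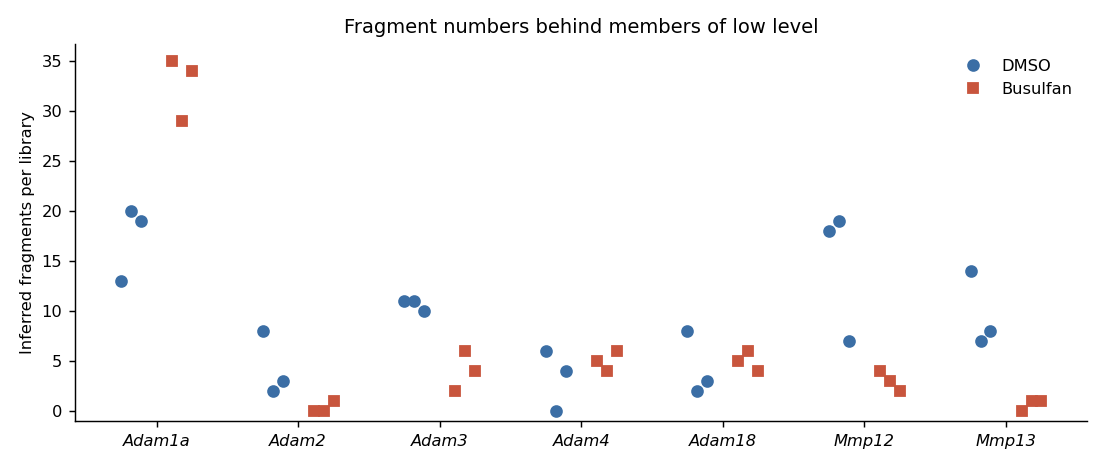
Inferred fragments per library for low ADAM and MMP genes, with circles for DMSO and squares for busulfan. Mmp13, Mmp12, Adam2 and Adam3 lie lower with busulfan in every library, Adam1a lies higher, and Adam4 and Adam18 overlap.

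Proteins that sperm ADAMs need for folding or processing were looked at as a list of 15 genes, of which 6 were tested. The tested genes had a median log2 change of -1.43, with 4 lower, 1 higher and 1 not past the threshold. By comparison, 22.1% of all genes tested were lower and 20.8% higher. Rnase10 was 3377 ± 374.2 FPKM with DMSO and 15.5 ± 6.31 with busulfan, and Ovch2 was 949.6 ± 44 and 40.2 ± 3.41 FPKM. Both are made by the proximal epididymis and are needed in mice for processing or keeping ADAM3 on sperm. Tpst2, which adds sulfate to tyrosines and is needed in mice for normal sperm ADAM proteins, was 433.6 ± 25.3 and 112.5 ± 2.29 FPKM (log2 change -1.94, adjusted p = 1.041e-07). Ros1, a receptor kinase of the initial segment, was lower as well, and Ace, a peptidase, rose from 183.3 ± 33.4 to 399.5 ± 51.5 FPKM. The chaperones Clgn and Pdilt were under the level tested. Sperm proteins were not measured.

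The ADAMTS genes moved in both directions. Of 7 tested, 2 were lower, 2 higher and 3 did not pass, against 22.1% lower and 20.8% higher of all genes tested. The family's sum of 41.3 to 47.5 FPKM with DMSO overlapped that of 44.2 to 48.9 FPKM with busulfan. Adamts2, which trims the amino-terminal propeptide from procollagens, measured 4.43, 4.45 and 5.78 FPKM with DMSO and 2.82, 3.14 and 1.99 with busulfan. The groups did not overlap (1.84-fold lower mean, log2 change -0.69, adjusted p = 0.005481). The other procollagen N-proteinases, Adamts3 and Adamts14, were under the level tested.

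Among the ADAMTS proteases of versican and aggrecan, Adamts15 and Adamts9 were higher while Adamts1 was lower. Adamts15 was 4.36 ± 0.34 FPKM with DMSO and 6.27 ± 0.36 with busulfan (log2 change 0.44, adjusted p = 0.002623), from 336 to 355 and 450 to 468 inferred fragments a library. Adamts9 was 5.28 ± 0.22 and 6.97 ± 0.33 FPKM (log2 change 0.34, adjusted p = 0.004422), with exons that overlap 2 genes of the other strand. Adamts1 was 5.62 ± 1.09 and 4.12 ± 0.36 FPKM (log2 change -0.36, adjusted p = 0.04614). That call is close to the threshold and was lost under 8 of the 12 alternatives that tested it (adjusted p of 0.0528 to 0.131), the leave-outs of DMSO replicate 2, of DMSO replicate 3 and of each busulfan replicate among them. Its neighbour on chromosome 16, Adamts5, was 2.03 ± 0.30 and 1.72 ± 0.33 FPKM and did not pass (adjusted p = 0.3529).

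Adamts13, which cuts von Willebrand factor, had the highest level of the family, with 13.6 ± 1.42 FPKM against 16.2 ± 3.58 (adjusted p = 0.2309). Adamts10, which binds fibrillin fibres, was 3.84 ± 0.30 against 4.66 ± 0.78 FPKM (adjusted p = 0.1551). It passed only without busulfan replicate 3 (adjusted p = 0.0314). The other 12 ADAMTS genes were under the level tested, the highest of them Adamts6 with 1.21 FPKM in a library.

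Among the MMPs, Mmp7 had the highest level and the largest fall of the tested genes. Mmp7 (matrilysin, NCBI gene 17393; chromosome 9, 7692090 to 7699585) is a small secreted protease made by glandular epithelia. It measured 98.5, 91.2 and 75.7 FPKM with DMSO and 36.4, 41.2 and 25.3 FPKM with busulfan. The groups did not overlap and 38.8% of the mean remained (2.58-fold lower, log2 change -1.36, SE 0.17, adjusted p = 0.0004032). Mmp7 was the only tested gene of its chromosome 9 run, whose other 9 genes stayed at or under 0.434 FPKM in every library. The next protein-coding genes on either side of the run, Dcun1d5 and Tmem123, did not pass (log2 changes 0.06 and -0.09).

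The AP-1 letters of the Mmp7 window shown above are shared with Mmp13, a collagenase, and with Mmp12, the elastase of macrophages, which were low in every library. Mmp13 gave 14, 7 and 8 inferred fragments with DMSO and 0, 1 and 1 with busulfan. Mmp12 gave 18, 19 and 7 fragments with DMSO and 4, 3 and 2 with busulfan. Both were lower in every busulfan library, and both passed with every gene of any signal tested (adjusted p = 0.0141 and 0.0387). Mmp1b gave 0 to 1, Mmp3 0 to 1 and Mmp8 0 to 2 fragments a library, too few to show a difference. Windows of Mmp1b, Mmp3, Mmp1a and Mmp10 hold the same letters as Mmp7 (TGAGTCA), while that of Mmp20 matched the pattern as TGAATCA. Mmp10 and Mmp20 were at 0 in every library. A link between these letters and the changes was not tested.

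Mmp15, a membrane-type MMP of epithelia and endothelia whose window held neither pattern, measured 4.79, 5.10 and 4.94 FPKM with DMSO and 2.34, 2.67 and 1.63 with busulfan. Its groups did not overlap (2.23-fold lower mean, log2 change -0.90, adjusted p = 0.0007401). Its relative Mmp14, the membrane protease that activates pro-MMP2 together with TIMP2, measured 53.0, 54.6 and 52.9 FPKM with DMSO and 54.8, 54.8 and 54.4 with busulfan. The groups overlapped, and the 95% interval of the change was -0.07 to 0.13 (adjusted p = 0.5917). With quantile normalization Mmp14 passed as higher (log2 change 0.15, adjusted p = 0.0354). The ratio of Mmp15 to Mmp14 was 0.0905 to 0.0933 with DMSO and 0.030 to 0.0487 with busulfan (exact permutation p = 0.1, the smallest possible). Given the levels of Mmp15 and Mmp14, this p adds no support. The third tested membrane-type gene, Mmp17, was 2.19 ± 0.36 and 1.81 ± 0.30 FPKM and did not pass.

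Mmp28 (epilysin), the only MMP past the threshold that was higher, was 2.11 ± 0.41 FPKM with DMSO and 3.12 ± 0.15 with busulfan (log2 change 0.41, adjusted p = 0.02064). The call was lost without DMSO replicate 2 and without busulfan replicate 2 (adjusted p = 0.0716 in the latter). Its exons overlap those of 1700020L24Rik on the other strand, which also rose, with 1.68 to 2.33 FPKM under DMSO and 3.19 to 3.92 under busulfan. Which strand the authors counted is not given in the sources used here. Mmp23, a small MMP with a membrane anchor, was 4.06 ± 0.40 and 2.95 ± 0.65 FPKM, with no overlap and an adjusted p of 0.05139.

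The gelatinases, which cut denatured collagen and basement membrane, did not pass. Mmp2 was 7.52 ± 0.84 and 6.97 ± 1.66 FPKM (adjusted p = 0.5759), and Mmp9 was 1.93 ± 0.11 and 2.11 ± 0.06 FPKM (adjusted p = 0.4814). Mmp11, which shares an exon overlap with Chchd10, was 2.18 ± 0.27 and 2.67 ± 0.40 FPKM (adjusted p = 0.1887). Without Mmp7 the sum of the MMPs was 79.8 to 80.4 FPKM with DMSO and 74.0 to 80.3 FPKM with busulfan, whereas with Mmp7 it was 155.4 to 178.9 FPKM against 99.3 to 119.4 FPKM.

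None of the 3 tested inhibitors passed. Timp2, the partner of Mmp14, measured 45.8, 46.0 and 53.7 FPKM with DMSO and 51.9, 48.5 and 42.5 with busulfan (log2 change -0.03, 95% interval -0.23 to 0.18, adjusted p = 0.8323). Timp3, which is bound to the matrix and also blocks ADAM10 and ADAM17, measured 34.2, 33.5 and 40.3 FPKM against 36.5, 36.4 and 27.3 (adjusted p = 0.4853). In both genes the groups overlapped and busulfan replicate 3 was the lowest library. Timp1, a secreted inhibitor of most MMPs, measured 12.1, 12.1 and 10.9 FPKM with DMSO and 12.3, 9.74 and 6.76 with busulfan (log2 change -0.30, 95% interval -0.69 to 0.10, adjusted p = 0.2005), and it passed only without busulfan replicate 1 (adjusted p = 0.0294). Timp4 was low, with 3, 0 and 4 inferred fragments against 2, 6 and 1. The ratio of Mmp7 to Timp1 was 6.93 to 8.11 with DMSO and 2.95 to 4.23 with busulfan, and that of Mmp14 to Timp2 overlapped, with 0.985 to 1.19 against 1.06 to 1.28.

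Genes that activate, steer or block these proteases moved in both directions. Of 6 tested convertases and plasminogen activators, 2 were lower and 1 higher, with a median log2 change of -0.29. The shares over all genes tested were 22.1% lower and 20.8% higher. Pcsk5, a convertase that removes prodomains, fell from 37.9 ± 2.79 to 8.22 ± 1.03 FPKM (log2 change -2.08, adjusted p = 1.224e-06). Plau, which makes plasmin from plasminogen, fell from 3.77 ± 0.48 to 1.93 ± 0.23 FPKM. Furin, the main activator of ADAMs and membrane-type MMPs, rose from 34.2 ± 0.76 to 41.3 ± 3.31 FPKM (log2 change 0.26, adjusted p = 0.01207).

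Of 8 tested partners of ADAM10 and ADAM17, 1 was lower and 3 were higher, with a median of 0.09. Rhbdf2 (iRhom2), which carries ADAM17 to the surface, measured 11.5, 14.8 and 14.6 FPKM with DMSO and 2.75, 2.40 and 2.78 with busulfan (log2 change -1.997, adjusted p = 3.003e-06). Its relative Rhbdf1, which serves the same protease, rose from 11.1 ± 0.15 to 13.3 ± 0.26 FPKM. Tspan15 and Tspan17, tetraspanins that carry ADAM10, both rose, Tspan15 from 55.7 ± 1.5 to 80.6 ± 3.25 FPKM and Tspan17 from 6.56 ± 0.87 to 10.6 ± 0.69. The 4 partners past the threshold are 50% of those tested, near the 42.8% of all genes.

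Of 7 tested inhibitors and clearance receptors outside the TIMPs, 2 were lower and 5 others did not pass, at a median of -0.10. The shares over all genes tested were 22.1% lower and 20.8% higher. Pzp, a broad protease trap of the alpha-2-macroglobulin kind, fell from 6.90 ± 0.82 to 0.933 ± 0.207 FPKM (log2 change -2.03, adjusted p = 4.956e-06), and Sfrp1, which can block ADAM10, fell from 20.5 ± 2.50 to 14.3 ± 2.87 FPKM. Without DMSO replicate 3 only 1 of the 7 was lower. Reck, a membrane inhibitor of MMPs, did not pass. Of 6 tested ADAMTS-like genes, which encode matrix proteins without the protease part, 1 was lower and 1 higher, with a median of -0.09. Adamtsl3 gave 192, 218 and 227 inferred fragments with DMSO and 2, 4 and 1 with busulfan (2.18 ± 0.10 and 0.0251 ± 0.0148 FPKM, adjusted p = 1.72e-05). Adamtsl2, under the level tested, gave 62, 65 and 68 fragments against 5, 15 and 5 (1.56 ± 0.03 and 0.209 ± 0.130 FPKM). Papln (papilin) rose from 5.08 ± 0.64 to 6.43 ± 0.34 FPKM, a call lost with no filter, with the replicate block and without any 1 of DMSO replicates 1 and 3 and busulfan replicates 1 and 2. Bmp1, the procollagen C-proteinase and the only tested gene of 8 other metzincins, fell from 10.9 ± 1.24 to 8.32 ± 0.57 FPKM (log2 change -0.35, adjusted p = 0.01407).

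Substrates split by kind. Of 14 tested genes of matrix substrates, 10 were lower and none was higher, with a median of -0.42. Among all genes tested 22.1% were lower and 20.8% higher. Only 7 of the 14 were lower with the replicate block and without any 1 of DMSO replicate 3 and busulfan replicates 2 and 3. Col1a1 fell from 38.9 ± 4.31 to 20.4 ± 6.15 FPKM, Col3a1 from 40.0 ± 7.69 to 22.3 ± 5.54 and Col1a2 from 61.6 ± 7.58 to 36.4 ± 8.17. These are the collagens whose propeptides Adamts2 and Bmp1 trim, and with Dcn they are also 4 of the 12 fibroblast markers given above. Of the 8 other fibroblast markers 5 were lower. Vcan (versican), the substrate of Adamts1, Adamts9 and Adamts15, was 5.04 ± 0.43 and 4.84 ± 0.62 FPKM and did not pass.

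Of 10 tested genes of membrane proteins that ADAMs shed, 3 were lower, 4 higher and 3 did not pass, with a median of 0.04. Hbegf, a ligand of the EGF receptor, gave 156, 183 and 298 inferred fragments with DMSO and 44, 38 and 32 with busulfan (log2 change -1.74, adjusted p = 0.0001613). Il6ra, a receptor released by ADAM10 and ADAM17, rose from 5.44 ± 0.55 to 13.3 ± 0.86 FPKM (log2 change 1.15, adjusted p = 1.977e-05). Notch1, cut by ADAM10, rose from 15.8 ± 1.47 to 30.7 ± 1.44 FPKM (log2 change 0.92, adjusted p = 3.813e-05). In both the busulfan libraries all lay above the DMSO libraries. The 8 lists together held 58 tested genes, of which 24 (41.4%) were lower and 10 (17.2%) higher. Among all genes tested 22.1% were lower and 20.8% higher. The lists were drawn up with earlier results of these data known, so these shares cannot be read as a test.

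**Figure D5:**
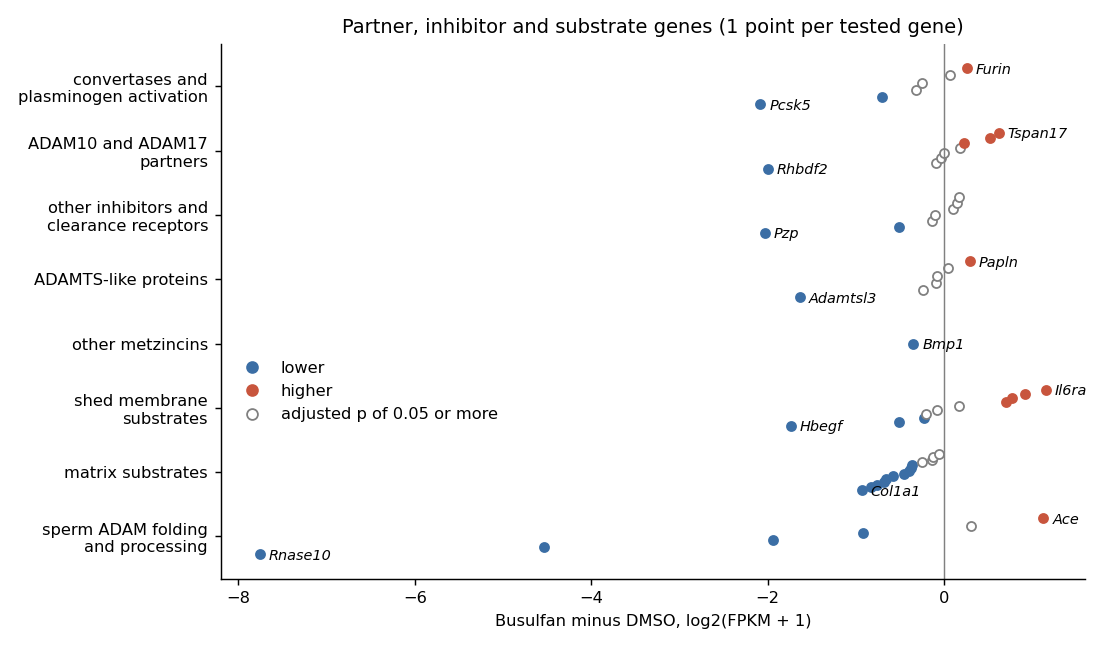
Log2 change, busulfan minus DMSO, of each tested gene of the 8 lists, with filled points past the threshold (blue lower, red higher). Matrix substrates lie under 0, and the other lists of more than 1 gene spread to both sides.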

How the data were processed

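RNA was purified with RNeasy and made into TruSeq stranded mRNA libraries, per the labels' protocols. The authors deposited values for 24346 genes in 6 libraries, in normalized FPKM per the file headers. The submitters' processing notes name TopHat2 2.1.1, Cufflinks 2.2.1 and the build mm10. For the normalization between libraries, the annotation and the strand setting, nothing is stated in the labels or headers. Because FPKM are relative to the library, losing the most abundant transcripts can lift the values of other genes.

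The 12848 genes averaging 1 FPKM or more were compared in limma (version 3.58.1; R version 4.3.3) after log2 transformation with a pseudocount of 1. The fit had a trend of variance on level, no covariates, all 6 libraries and Benjamini-Hochberg adjustment. The script was tested on simulated data. Intervals are limma's 95% intervals. Coordinates are from GENCODE M21 (GRCm38) by symbol, which placed all 80 members, and promoter windows are from RefSeq (GRCm38.p6). Whole steps were found for 85.5% of 2044 low genes. A step also carries the authors' normalization, and inferred fragments cover counting only, so no count test was run. Members and lists were chosen with earlier results of these data known. Every tested gene of the family is named, Timp genes, members past the threshold with a change of at least 0.5 and the 6 most abundant with each library, and from each list up to 3 genes past the threshold with the largest change; other list genes were named after their values were seen. The alternatives were another pseudocount, other filters, 2 scalings, no trend, a replicate block and leaving out each library.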

Additional observations from a re-analysis of the deposited data

How the results depend on the processing

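Of the 13 members past the threshold, 10 kept their call and direction under every one of the 13 alternatives that tested them, and the exceptions were Adam7, Adamts1 and Mmp28. Of the 15 others, 4 passed under an alternative, namely Adamts10, Mmp14, Timp1 and Mmp23. Mmp23 passed with quantile normalization, with the replicate block and without busulfan replicate 2 (adjusted p = 0.0366, 0.0474 and 0.0239). With a mean of at least 5 FPKM, 5 members were lower and 2 higher, since fewer genes were tested, and with no filter the median change over 71 members was -0.0308. The change turned sign for 4 members, none past the threshold. Over the leave-outs it ran from -0.317 to 0.0038 for Adam23, -0.261 to 0.045 for Mmp2, -0.179 to 0.0225 for Timp3 and -0.0893 to 0.0517 for Timp2, each highest without busulfan replicate 3. For Timp2 it was also 0.0821 with quantile normalization, 0.000704 with median centring and 0.047 without DMSO replicate 3, and the cause was not tested. Quantile normalization moved the share of higher genes among all genes past the threshold from 48.5% (2833 lower and 2668 higher) to 58.4% (2302 and 3228), and median centring to 54.3%.

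The same replicate number did not pair the libraries (correlations of deviations -0.18, -0.025 and -0.175). With the replicate block, 10 members were lower and 4 higher, 2423 and 2204 genes in all, and 21 and 9 list genes.

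Leaving out 1 library at a time gave 8 to 9 members lower and 3 to 5 higher, a member median of -0.22 to -0.07, 2299 to 2681 genes lower and 2095 to 2407 higher, and 20 to 26 list genes lower and 9 to 11 higher. At about 11300000 to 13300000 fragments a library, members under the level tested rest on few fragments.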
